A study of Mus musculus with 7 samples.

Results

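DNA replication in S phase draws on a known set of genes, and 39 of them, listed by symbol, were followed here through mouse bone marrow progenitors sequenced one cell at a time. All 39 symbols were found once among the 32285 genes counted. They fall into helicase and licensing factors (11 genes), fork and polymerase factors (9), chromatin factors (8), repair factors (6), nucleotide supply (3) and cell-cycle control (2). For each gene and for the sum of the 39, the level was compared between cell states and between genotypes. The list was given by symbol and its rule uses no measured value.

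The cells were bone marrow LSK cells, the lineage-negative, Sca-1-positive, c-Kit-positive fraction that holds blood stem cells and the earliest progenitors, sorted by flow cytometry. One group came from full B4galt1 knockout mice (3 libraries, genotype label 129S1/C57Bl/6, B4-/-) and the other from wild-type mice on the mixed background given as 129S1/C57Bl/6 (4 libraries, called WT). B4galt1 encodes a Golgi galactosyltransferase that builds the galactose-containing ends of glycans. The labels give no age or sex and do not say whether each library is 1 mouse, so every p-value measures the spread between these libraries.

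Before a chromosome is copied, rings of MCM proteins (Mcm2 to Mcm7) are loaded at origins with the help of Cdc6, and in S phase Cdc45 and the GINS complex turn them into active helicases. Primase and polymerases then copy the strands on the sliding clamp Pcna, ribonucleotide reductase (Rrm1, Rrm2) and thymidylate synthase (Tyms) supply the nucleotides, and histone chaperones rebuild the chromatin. Many of these genes are transcribed together as cells enter S phase, under E2F transcription factors, and long-term blood stem cells are known to divide seldom. Progenitors committed to the granulocyte and monocyte (GM) branch divide more often.

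The promoters of 29 of the 39 genes were matched in RefSeq sequence of build GRCm38.p6. In windows of 300 bases around the start of transcription, 4 strings of the E2F type (TTTCCCGC, TTTCGCGC, TTTGCCGC and TTTGGCGC, on either strand, where overlapping matches count separately) were looked for. At least 1 was present for 13 of 29 members (44.8%), for 15 of 44 matched genes among 52 other replication factors (34.1%) and for 704 of 27025 genes in all (2.60%). The string CCAAT, on either strand, was present for 69.0% of the members and 41.1% of all genes. The 250 bases before the start of transcription are printed 5′ to 3′ on the gene's strand for Mcm5 (chr8:75109259-75109508, plus strand), Mcm6 (chr1:128359706-128359955, minus strand), Cdc6 (chr11:98907901-98908150, plus strand), Pola1 (chrX:93632156-93632405, minus strand), Rrm2 (chr12:24708004-24708253, plus strand) and Chaf1b (chr16:93883651-93883900, plus strand). Capitals mark the E2F-type matches, and these genes stand for promoters with several, 1 and no match.
Mcm5: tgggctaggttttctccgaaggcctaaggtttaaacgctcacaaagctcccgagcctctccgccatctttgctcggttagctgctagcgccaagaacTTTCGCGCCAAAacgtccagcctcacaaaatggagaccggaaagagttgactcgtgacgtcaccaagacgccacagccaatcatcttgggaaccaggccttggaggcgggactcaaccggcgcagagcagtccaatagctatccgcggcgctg
Mcm6: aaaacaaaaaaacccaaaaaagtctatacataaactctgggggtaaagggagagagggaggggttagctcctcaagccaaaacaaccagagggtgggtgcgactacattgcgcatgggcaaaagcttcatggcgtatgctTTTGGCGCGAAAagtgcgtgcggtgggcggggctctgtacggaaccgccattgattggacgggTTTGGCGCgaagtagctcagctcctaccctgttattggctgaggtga
Cdc6: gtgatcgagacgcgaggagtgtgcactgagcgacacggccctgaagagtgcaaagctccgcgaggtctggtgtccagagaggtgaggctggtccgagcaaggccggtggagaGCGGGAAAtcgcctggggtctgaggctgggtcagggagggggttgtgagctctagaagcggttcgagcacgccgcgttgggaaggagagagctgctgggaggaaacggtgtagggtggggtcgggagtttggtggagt
Pola1: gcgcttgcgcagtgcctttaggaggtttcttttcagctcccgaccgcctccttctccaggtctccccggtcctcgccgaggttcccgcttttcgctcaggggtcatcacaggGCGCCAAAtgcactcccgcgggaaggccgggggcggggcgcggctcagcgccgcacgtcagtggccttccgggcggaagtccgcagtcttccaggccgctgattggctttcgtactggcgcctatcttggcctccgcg
Rrm2: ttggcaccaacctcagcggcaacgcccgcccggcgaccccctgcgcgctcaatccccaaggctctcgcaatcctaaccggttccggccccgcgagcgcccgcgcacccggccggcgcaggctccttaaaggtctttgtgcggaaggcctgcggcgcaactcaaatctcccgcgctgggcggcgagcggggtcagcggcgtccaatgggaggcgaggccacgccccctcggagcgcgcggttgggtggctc
Chaf1b: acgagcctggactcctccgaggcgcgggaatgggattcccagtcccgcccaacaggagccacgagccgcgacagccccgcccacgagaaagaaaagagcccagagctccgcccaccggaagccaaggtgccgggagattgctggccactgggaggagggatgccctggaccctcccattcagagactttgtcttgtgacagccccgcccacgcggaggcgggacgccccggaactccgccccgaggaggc
Mcm6 held 3 matches, between 110 and 47 bases before its start. The 2 matches of Mcm5 overlap and lie 153 and 149 bases before its start. Rrm2 and Chaf1b held none of the 4 strings, which says only that these letters are not in these windows. A match is a description of sequence and no evidence of a bound site.

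Across the 7 libraries 24430 cells were kept, from 1172 to 8862 in each, with a median of 8046 to 11084 unique molecular identifiers (UMIs, each standing for 1 captured RNA molecule) per cell. Knockout library 3 and WT library 4 stand apart from the other libraries. Their barcodes come from a second list (list B in the plots, with 480 different openings of 6 bases against 900 to 958), ribosomal protein genes take 31.5% and 31.7% of their UMIs against 14.6% to 22.1%, and they share 88 barcodes, while no other pair shares more than 7. Each list holds both genotypes, so the barcode list was a covariate in every comparison of labels. B4galt1 RNA was 51.3, 55.6 and 27.4 CPM (counts scaled to a fixed library total) in the knockout libraries and 56.5, 69.2, 56.7 and 34.8 in the WT libraries. These ranges overlap, while within each barcode list every knockout value was below every WT value. The knockout libraries still held this RNA, so the groups are named here by their labels. Both sort markers were detected in every library, Kit at 137 to 311 CPM and Ly6a, which encodes Sca-1, at 16.6 to 48.2 CPM.

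Cells were assigned to states by marker genes that are not among the 39. A cell was GM-marked when at least 3 of 10 GM genes (such as Mpo, Elane and Ctsg) had a UMI and together took at least 10 of each 10000 UMIs. Outside these cells, stem-marked (genes such as Hlf, Mecom and Procr) and lymphoid-marked cells (such as Dntt, Il7r and Rag1) were defined the same way, and cells with no such signal were called unmarked. There were 6848 GM-marked, 9189 stem-marked, 1415 lymphoid-marked and 6489 unmarked cells. The GM-marked share of cells was 57.8%, 52.5% and 34.0% in the knockout libraries and 18.7%, 14.4%, 10.5% and 14.4% in the WT libraries, and the label groups do not overlap.

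The 39 genes together took more of the RNA in GM-marked cells than in other cells of the same library, in all 7 libraries. In GM-marked cells the sum was 41.8, 47.0 and 35.5 UMIs per 10000 in knockout libraries 1 to 3 and 49.9, 49.4, 43.1 and 37.4 in WT libraries 1 to 4. In the remaining cells it was 30.7, 35.1 and 25.5 in the knockout libraries and 40.9, 37.5, 33.3 and 25.2 in the WT libraries. The difference was 10.8 ± 1.24 UMIs per 10000 (SD, n = 7), with a range of 9.06 to 12.2. Of the GM-marked, lymphoid-marked, unmarked and stem-marked cells, the stem-marked ones had the lowest sums, at 27.6, 32.7 and 19.8 in the knockout libraries and 37.4, 35.3, 31.3 and 19.8 in the WT libraries. In every library the stem-marked sum was below the unmarked one, with a mean difference of -7.81 ± 1.70 per 10000 (SD, n = 7). Unmarked cells lay between stem-marked and GM-marked cells in each library, at 29.1 to 45.0. Lymphoid-marked cells were at 30.6 to 50.2, below GM-marked cells in 6 of 7 libraries (not in WT library 1) and above unmarked cells in 6 of 7. States with few cells could be summed only in knockout library 3 and WT library 4. The sum was 40.2 and 32.6 there in megakaryocyte-marked cells and 27.7 and 40.4 in cells marked for erythroid or mast genes, with 44 to 156 cells each. The 40.2 and the 40.4 lie above GM-marked cells of the same library (35.5 and 37.4), and the 32.6 and the 27.7 lie below. A lower sum can come from fewer cells in S phase or from less of these RNAs in each cell, and which of the 2 applies was not tested.

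**Figure D1:**
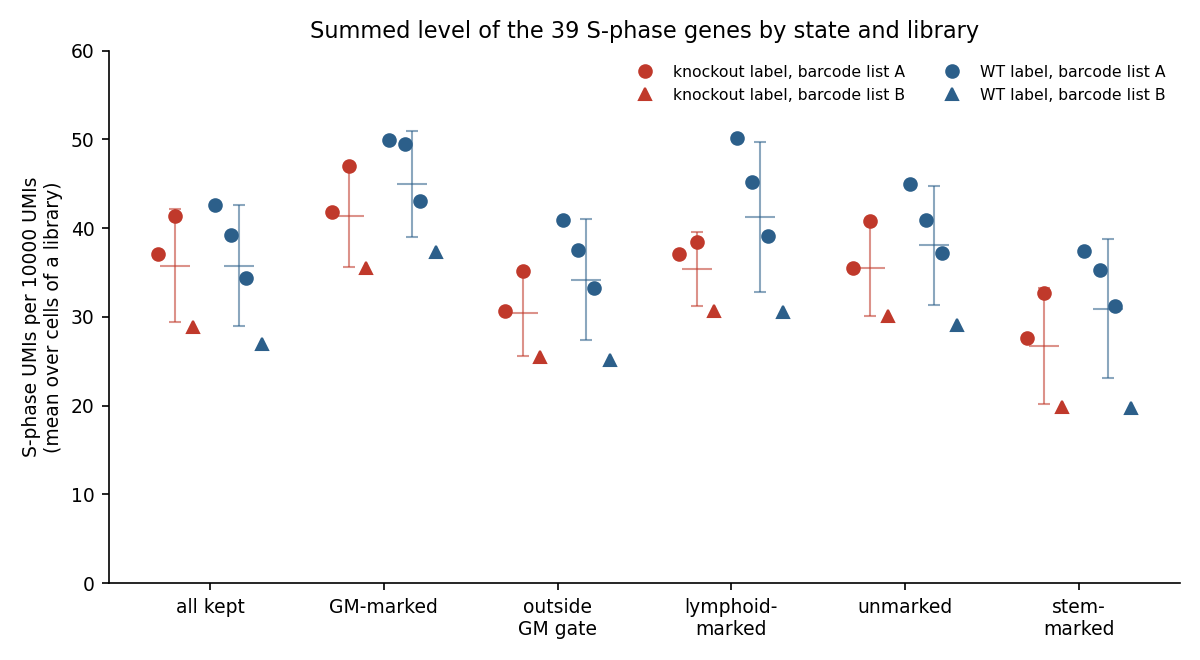
Summed level of the 39 S-phase genes (vertical axis, UMIs per 10000, mean over the cells of a library) in all kept cells and in 5 cell states. Each point is 1 library, red for the knockout label and blue for WT, with triangles for the second barcode list, and bars give the mean and 1 SD of each label group. GM-marked cells sit at 35.5 to 49.9 and stem-marked cells at 19.8 to 37.4, and the label groups overlap in every state.

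Depth differed between the states, with a median of 12772 to 18084 UMIs in GM-marked cells and 5210 to 9876.5 in other cells of a library. When each cell was thinned to 3000 UMIs, 82.1% of GM-marked, 70.1% of lymphoid-marked, 66.1% of unmarked and 50.8% of stem-marked cells held 5 or more UMIs of the 39 genes. Before thinning the shares were 97.4%, 91.6%, 88.7% and 80.9%, and 63, 19, 278 and 315 cells were too shallow to thin. For comparison, 75 cells marked by a list of genes of mature T, NK, B, myeloid and endothelial cells were treated the same way. Of the 46 deep enough, 41.3% held 5 or more such UMIs (exact binomial 95% interval 27.0% to 56.8%, counting error only), and the pooled stem-marked share lies inside that interval. The median depth of the 75 cells was 4778 UMIs, below the 7165 of stem-marked cells. Camp took 190.9 of their 407.9 marker UMIs per 10000, and Cdh5, Cldn5, C1qa and C1qb had no UMI. By library their markers took 28.8 to 857 per 10000. Whether these cells make RNA of the 39 genes themselves was not tested. Their share therefore cannot serve as a level of RNA free in the suspension. By library the stem-marked share was 59.0%, 71.4% and 41.2% in the knockout libraries and 73.7%, 71.6%, 62.2% and 41.9% in the WT libraries. It was lower than the unmarked share in all 7. Knockout library 3 and WT library 4, the lowest, hold most stem-marked cells and set the pooled share, and the other 5 libraries lie above the interval.

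The sum also changed with the marker levels. Over all kept cells its mean went from 30.5 per 10000 in cells with under 2 GM-marker UMIs per 10000 to 44.4 in cells with 20 to 50. The rise was not steady in each library. Knockout library 3 went from 27.7 under 2 to 24.8 at 5 to 10, before 35.8 at 20 to 50. Between 50 and 100 the sum was 41.5 to 48.4 in 6 libraries. Above 100 it was 33.8 to 48.2 in the 5 libraries with at least 20 such cells, and WT libraries 2 and 3 had fewer. Outside the GM gate, the mean was 36.7 in cells with under 2 stem-marker UMIs per 10000 and highest, 38.9, at 2 to 5. It was 28.0 at 20 to 40 and 19.4 above 40. In each library the cells highest in stem markers had 0.306 to 0.590 times the level of those at 2 to 5. The steepest declines were in knockout library 3 (0.346) and WT library 4 (0.306). These cells were also shallower, with library medians of 4091 to 6386.5 UMIs at the top of the stem scale against 7002 to 13043 at 2 to 5. The part of depth in this decline was not tested.

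**Figure D2:**
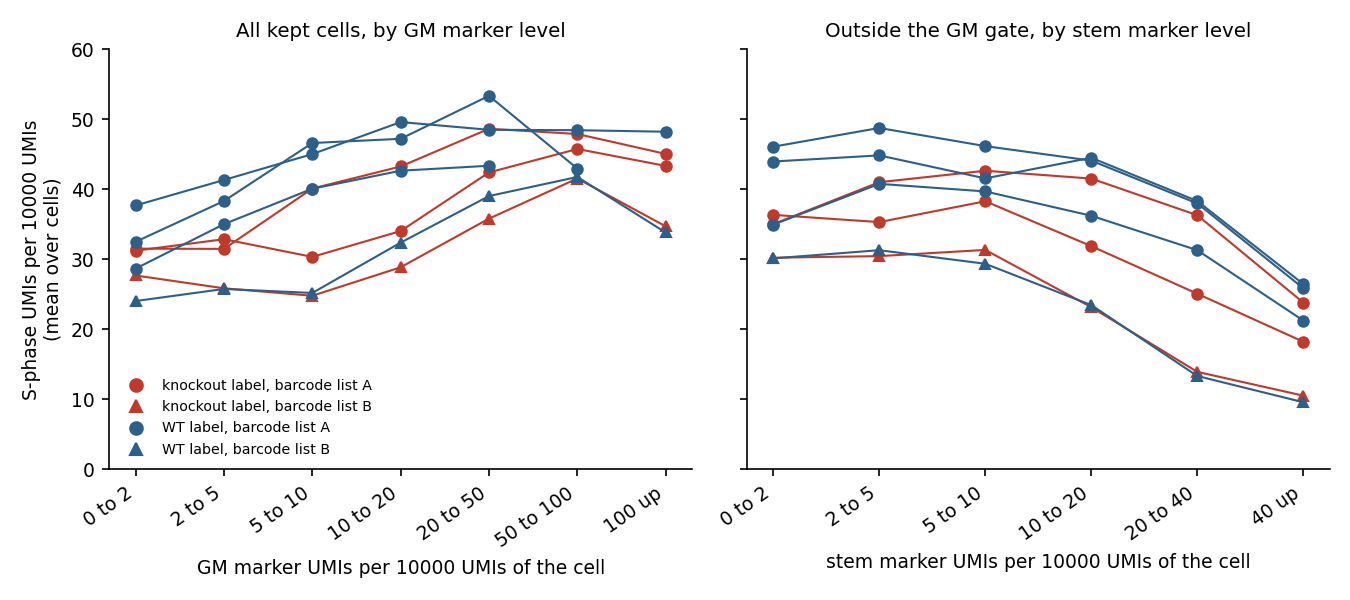
Summed level of the 39 genes (vertical axis, UMIs per 10000) against the GM-marker level of a cell (left, all kept cells) and the stem-marker level (right, cells outside the GM gate), both in UMIs per 10000. Each line is 1 library, with colours for the label and triangles for the second barcode list. On the right every line ends at 26.5 or below.

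Gene by gene, the 39 were compared between GM-marked and other cells with counts summed per library and the library as a block (edgeR quasi-likelihood test, Benjamini-Hochberg adjustment over all 14925 genes tested, threshold 0.05). All 39 passed the filter on low counts in every comparison. Of the 39, 34 were higher in GM-marked cells and none was lower, where 28% of all genes were called higher and 28.1% lower. The median log2 difference of the 39 was 0.41, and that of all genes was -0.03. Without trimmed-mean (TMM) scaling, and with ribosomal protein and mitochondrial genes left out, the median of all genes moved by -0.14, with 2831 genes called higher (19%) and 5876 lower against 4179 and 4187 with it. On that scale 29 members were called higher, 36 of 39 had a positive difference and their median was 0.29, which is 0.46 above that of all genes. With TMM the median was 0.44 above that of all genes. When the gates were drawn on cells thinned to 3000 UMIs, 28 were called against 27.1% of all genes, and the median was 0.31. Levels of single genes below are TMM-scaled CPM of the summed counts, comparable between states and not between genes.

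All 3 nucleotide-supply genes rose in GM-marked cells, and Rrm2, the small subunit of ribonucleotide reductase, rose most of the 39. Rrm2 was at 117, 64.8 and 93.3 CPM in GM-marked cells of the knockout libraries and at 84.8, 58.9, 81.6 and 98.7 in those of the WT libraries. In other cells it was at 30.4, 28.3 and 51.5 in the knockout libraries and at 37.1, 34.2, 33.3 and 58.7 in the WT libraries. The lowest GM-marked value, 58.9, is just above the highest sum of other cells, 58.7. The log2 difference was 1.15 (SE 0.12), or 2.21-fold, with an edgeR adjusted p of 2.2e-05. Single states among the other cells reached higher levels. Cells marked for erythroid or mast genes were at 148 in knockout library 3 and 273 in WT library 4, above GM-marked cells there. Megakaryocyte-marked cells of these libraries were at 84.6 and 63.9, below GM-marked cells. Lymphoid-marked cells were at 99.9 in WT library 4 and below GM-marked cells in the other libraries. Rrm2 had a UMI in 43.9% of GM-marked cells and 17.1% of other cells. The large subunit Rrm1 rose by 0.68 (SE 0.08, edgeR adjusted p 2.3e-05) and Tyms, which makes thymidylate, by 0.64 (SE 0.07, edgeR adjusted p 1.2e-05).

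Of the 11 helicase and licensing genes, 10 rose in GM-marked cells, with a median log2 difference of 0.51 for the 11. Mcm5, a subunit of the helicase ring, was at 118, 127 and 158 CPM in GM-marked cells of the knockout libraries and at 123, 112, 101 and 165 in those of the WT libraries. In other cells Mcm5 was at 53.8, 63.5 and 101 in the knockout libraries and at 82.4, 76.2, 71.5 and 104 in the WT libraries. It was higher in GM-marked cells of every library, by 0.73 on the log2 scale (SE 0.08, edgeR adjusted p 1.5e-05), although the highest values elsewhere reach the lowest GM-marked ones. The other ring subunits rose less, by 0.57 for Mcm7, 0.49 for Mcm2, 0.47 for Mcm3, 0.37 for Mcm6 and 0.32 for Mcm4, so the 6 subunits of 1 complex spanned 0.32 to 0.73. Cdc45, which joins the ring to form the active helicase, rose by 0.77 (SE 0.09), and Gmnn, which keeps origins from being licensed again, by 0.68 (SE 0.07). Cdc45 was at 39.01 to 47.9 CPM in the 7 GM-marked samples and at 19.1 to 30.1 in the sums of other cells, with no overlap. Single states among the other cells reached 50.9, in megakaryocyte-marked cells of knockout library 3. Gins2, a subunit of GINS, rose by 0.55 and the loader Cdc6 by 0.51. Dtl, which directs the licensing factor Cdt1 to destruction at replicating DNA, was higher in 4 of 7 libraries, with a log2 difference of 0.13 (SE 0.07, edgeR adjusted p 0.14).

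Among the 9 fork and polymerase genes, 7 rose, with a median of 0.34. Fen1, the nuclease that trims Okazaki fragments, rose by 0.66 (SE 0.09, edgeR adjusted p 5.1e-05). Pcna was at 326, 394 and 329 CPM in GM-marked cells of the knockout libraries and at 411, 391, 362 and 343 in those of the WT libraries. In other cells Pcna was at 236, 332 and 242 in the knockout libraries and at 363, 316, 289 and 265 in the WT libraries. The clamp gene was thus higher in GM-marked cells of all 7 libraries, by 0.34 (SE 0.06, edgeR adjusted p 0.00067), with ranges that overlap between libraries. The fork-protection factor Tipin rose by 0.49, the checkpoint adaptor Clspn and the primase subunit Prim1 by 0.36 each, the clamp-loader subunit Rfc2 by 0.32 and Dscc1, which helps load the clamp, by 0.31. Pola1, the catalytic subunit of the primase-bound polymerase, had a log2 difference of 0.09 (SE 0.09) and Pold3, an accessory subunit of polymerase delta, of 0.15 (SE 0.06), with edgeR adjusted p-values of 0.41 and 0.058.

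The 8 chromatin genes had the lowest median, 0.29, and 6 of them rose. The remodeller Hells (0.41), its partner Cdca7 (0.45) and the histone chaperone Nasp (0.39) rose most, followed by Uhrf1 (0.34), which brings the maintenance methyltransferase to new DNA, the chromatin ATPase Atad2 (0.25) and Slbp (0.19), which binds histone mRNA. Chaf1b, a subunit of the chaperone CAF-1 that places new histones behind the fork, was at 42.8, 34.8 and 73.4 CPM in GM-marked cells of the knockout libraries and at 39.1, 34.5, 39.4 and 73.2 in those of the WT libraries. In other cells it was at 38.4, 31.4 and 71.6 in the knockout libraries and at 43.7, 36.1, 40.5 and 69.0 in the WT libraries. Chaf1b was higher in GM-marked cells of 4 libraries and lower in 3, with a difference of 0.04 (SE 0.06, edgeR adjusted p 0.62). Casp8ap2, needed for histone gene expression, had a difference of 0.10 (SE 0.06, edgeR adjusted p 0.14). All 6 repair genes rose, from 0.17 for Wdr76 to 0.54 for Rad51ap1. Between them were the deubiquitinase Usp1 (0.51), the nuclease Exo1 (0.43), the helicase Blm (0.41) and the uracil glycosylase Ung (0.27). Both cell-cycle genes rose, E2f8, a repressor among the E2F factors, by 0.79 (SE 0.09, edgeR adjusted p 1.8e-05) and Ccne2, a cyclin of S-phase entry, by 0.45 (SE 0.10, edgeR adjusted p 0.0019).

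The 5 members not called were Chaf1b, Pola1, Casp8ap2, Dtl and Pold3, each with a difference of 0.15 or less. In the 300-base windows Pola1, Casp8ap2, Dtl and Pold3 had 1 E2F-type match each, and Chaf1b had none. Rrm2, with the largest difference, has no match either. Over the matched genes the median difference was 0.37 for the 13 with a match, of which 9 were called. It was 0.45 for the 16 without, of which 15 were called.

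Replication factors outside the list moved the same way. Of 52 (origin recognition complex, further polymerase, clamp-loader and single-strand-binding subunits, and others), 42 were higher in GM-marked cells and none was lower, with a median of 0.40. The largest differences were those of Mcm10, an initiation factor (0.72), the clamp-loader subunits Rfc5 and Rfc4 (0.71 each) and the histone chaperone Asf1b (0.71). Mcm10 was at 25.5 to 43.4 CPM in GM-marked cells and at 17.3 to 29.8 in others. Orc4 (-0.16) and Orc5 (-0.06), subunits of the origin recognition complex, had negative differences that did not pass the test (edgeR adjusted p 0.081 and 0.39).

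**Figure D3:**
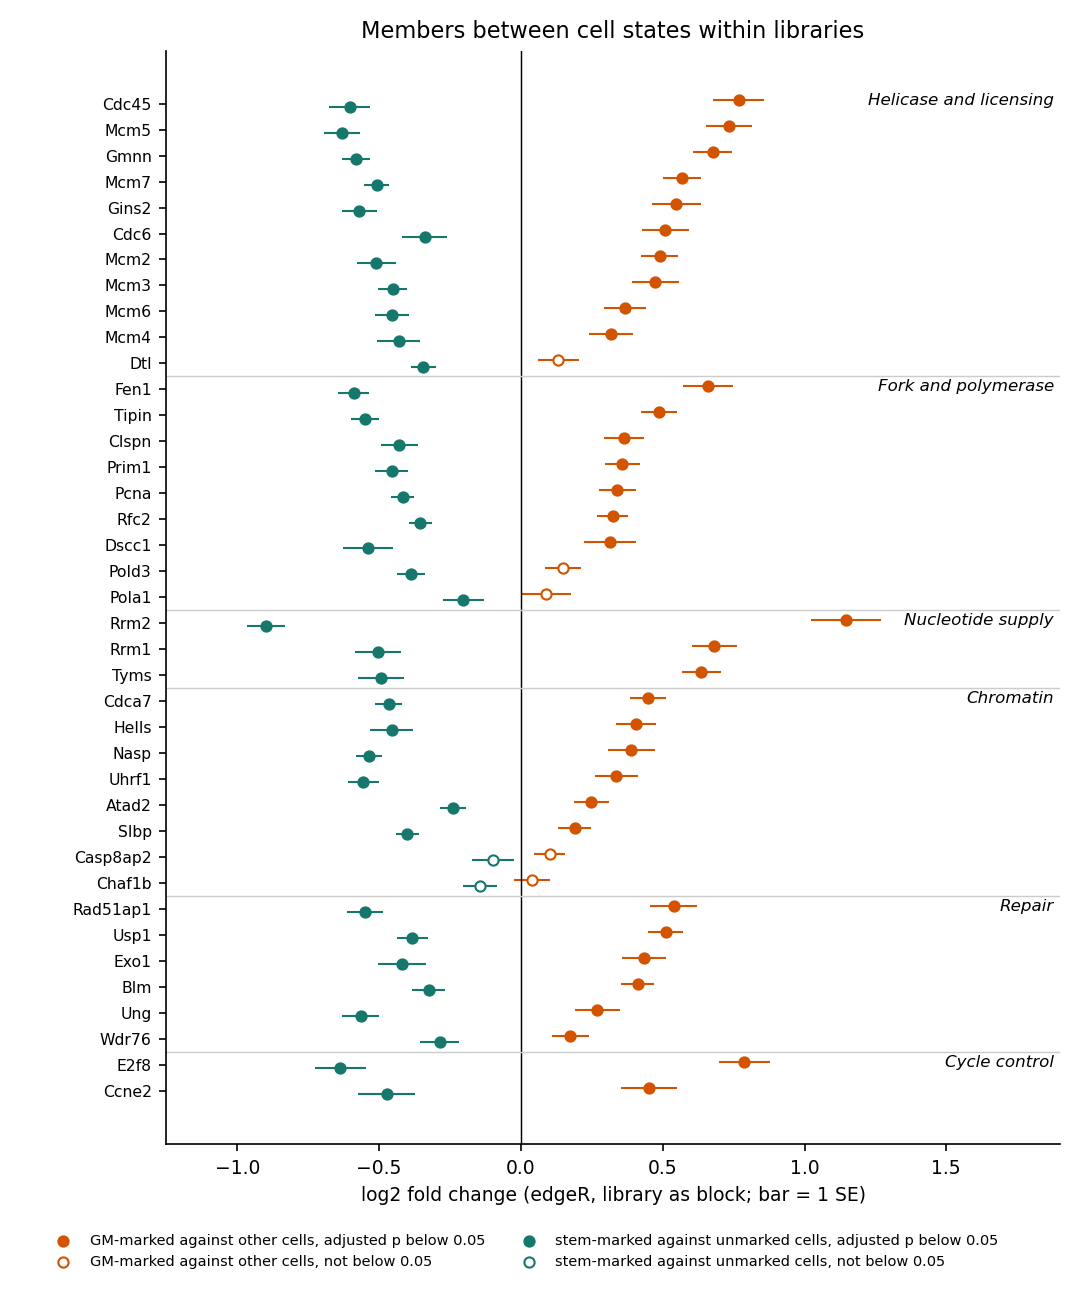
Log2 difference of each of the 39 genes between GM-marked and other cells (orange) and between stem-marked and unmarked cells (green), grouped by role, with bars of 1 SE (edgeR, library as block). Filled points passed an adjusted p of 0.05. Rrm2 is at the extreme on both sides (1.15 and -0.90), and Chaf1b and Casp8ap2 are open on both sides.

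Outside the GM gate the comparison of stem-marked with unmarked cells gave the lower side. Of the 39 genes, 37 were lower in stem-marked cells and none was higher (edgeR quasi-likelihood test over 13722 genes), where 24% of all genes were called lower and 19.9% higher. The median was -0.46, against -0.01 for all genes. Without TMM scaling, as above, 36 members were lower, while all genes split into 3803 higher and 2340 lower (17%) in place of 2726 and 3290. With looser gates, which need 2 markers and 5 UMIs per 10000, 21 members were lower, against 5.66% of all genes.

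Rrm2 was again at the extreme. In stem-marked cells it was at 21.1, 25.2 and 30.0 CPM in the knockout libraries and at 27.8, 25.5, 25.6 and 33.9 in the WT libraries. In unmarked cells it was at 46.2, 37.3 and 63.7 in the knockout libraries and at 48.1, 40.3, 46.7 and 58.3 in the WT libraries. No stem-marked value reached an unmarked one, and the log2 difference was -0.90 (SE 0.07, edgeR adjusted p 1.8e-11). E2f8 (-0.64), Mcm5 (-0.63), Cdc45 (-0.60), Fen1 (-0.59), Gmnn (-0.58), Gins2 (-0.57) and Ung (-0.57) followed.

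All 11 helicase and licensing genes were lower in stem-marked cells, from -0.63 for Mcm5 to -0.34 for Cdc6. Mcm5 was at 46.3, 58.1 and 67.3 CPM in stem-marked cells of the knockout libraries and at 72.1, 62.2, 64.7 and 73.8 in those of the WT libraries. In unmarked cells it was at 67.3, 79.1 and 122 in the knockout libraries and at 98.9, 106, 82.0 and 118 in the WT libraries. Each library was lower in its stem-marked cells, while the ranges overlap between libraries through the low unmarked value of knockout library 1. The ring subunits were closer to each other than in the GM comparison, at -0.51 for Mcm2 and Mcm7, -0.45 for Mcm3 and Mcm6 and -0.43 for Mcm4. Pcna was at 191 to 331 CPM in stem-marked and at 280 to 418 in unmarked cells, lower in stem-marked cells of all 7 libraries, with a difference of -0.42 (SE 0.04, edgeR adjusted p 3.4e-09), and Tyms had -0.49 (SE 0.08, edgeR adjusted p 0.00046). Ccne2 had a difference of -0.47 (SE 0.10, edgeR adjusted p 0.00034), in 6 of 7 libraries. Pola1 passed the test here with the smallest difference called, -0.20 (SE 0.07, edgeR adjusted p 0.043). The 2 genes not called, Chaf1b (-0.14, SE 0.06, edgeR adjusted p 0.056) and Casp8ap2 (-0.10, SE 0.07, edgeR adjusted p 0.30), are also among the 5 not called in the GM comparison. Of the 52 other replication factors, 44 were lower in stem-marked cells, with a median of -0.39, among them Tk1 (-0.65), the thymidine salvage kinase, and Cdt1 (-0.52), which loads the ring.

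Lymphoid-marked cells differed from unmarked cells in few of the 39. Of the 39, 2 were higher and 3 were lower (edgeR quasi-likelihood test over 11883 genes), where 10.4% of all genes were called higher and 11.2% lower, so the members' shares are close to or under the background. Rrm1 was at 116, 113 and 136 CPM in lymphoid-marked cells of the knockout libraries and at 152, 160, 133 and 113 in those of the WT libraries, against 87.0, 87.4 and 104 and 123, 139, 116 and 101 in unmarked cells. It was higher in lymphoid-marked cells of all 7 libraries, by 0.24 (SE 0.06, edgeR adjusted p 0.0028). Nasp was higher by 0.16 (SE 0.06, edgeR adjusted p 0.048), but passed in 4 of 16 alternatives, where its edgeR or DESeq2 adjusted p ran up to 0.91, while the other genes called here passed in 14 or 15. Chaf1b was lower, at -0.44 (SE 0.09, edgeR adjusted p 0.00027), Dscc1 at -0.40 (SE 0.11, edgeR adjusted p 0.010) and Rfc2 at -0.28 (SE 0.06, edgeR adjusted p 0.00071). Rfc2 was at 136, 126 and 258 CPM in lymphoid-marked cells of the knockout libraries and at 127, 105, 123 and 265 in those of the WT libraries, below unmarked cells in 6 of 7 libraries. With looser gates 0 of the 39 passed the edgeR test, where 7.15% of all genes did, and in the 5 libraries of the first barcode list 3 did, where 12.4% of all genes did. The fixed genes Mcm2 to Mcm7, Pcna, Tyms, Rrm2 and Ccne2 lay between -0.08 and 0.19 there, and none of the 10 passed (smallest edgeR adjusted p 0.085). Dscc1 rests on few counts, with 303 UMIs over all lymphoid-marked cells and 2 in the sparsest library. Of the 52 other replication factors, 4 were higher (E2f2, Dck, Dbf4 and Ticrr, 0.34 to 0.74) and Lig1, the ligase of Okazaki fragments, was lower (-0.22).

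Between the labels the summed level of the 39 genes differed by 0.017 over all kept cells, at 35.8 ± 6.33 UMIs per 10000 (SD, n = 3) in the knockout libraries and 35.8 ± 6.81 (SD, n = 4) in the WT libraries. Within GM-marked cells it was 41.4 ± 5.75 against 45.0 ± 5.95, outside them 30.4 ± 4.82 against 34.2 ± 6.79, and in stem-marked cells 26.7 ± 6.50 against 31.0 ± 7.87. The ranges of the labels overlap in each of these, and each difference is smaller than the spread within either label, which includes that between barcode lists. In unmarked cells the sum was 35.5 ± 5.35 against 38.1 ± 6.73. The largest difference, -5.88, was in lymphoid-marked cells, at 35.4 ± 4.15 against 41.3 ± 8.44. It exceeds the knockout SD. The ranges there overlap over all 7 libraries, but not in the first barcode list (37.1 and 38.4 against 39.1 to 50.2). The second list had 30.7 and 30.6. Leaving out 1 library at a time gave differences, knockout minus WT, of -6.32 to -0.575 in GM-marked, -6.80 to -1.31 in other and -7.97 to -0.797 in stem-marked cells. Each was nearest to 0 without knockout library 3, the one of the second barcode list. In the first barcode list the difference, knockout minus WT, was -3.10 in GM-marked and -4.34 in other cells. In the second list, with 1 library of each label, it was -1.89 in GM-marked and 0.351 in other cells.

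The knockout libraries hold more GM-marked cells, which are high in these genes, so the sum was also computed with 1 mix for all. With every library given the same GM-marked share, 28.9%, the means became 33.6 ± 5.09 and 37.3 ± 6.52, a difference of -3.71 in place of 0.017. With each library's own share and the average level of each state, the means were 37.8 ± 1.36 and 34.2 ± 0.359, a difference of 3.64. With an observed difference of 0.017, the part of the GM-marked share and the part of the levels within states nearly cancel by arithmetic. Their like size and opposite sign are therefore no separate result, and neither part was tested. The difference at a common mix is within the spread of the libraries.

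**Figure D4:**
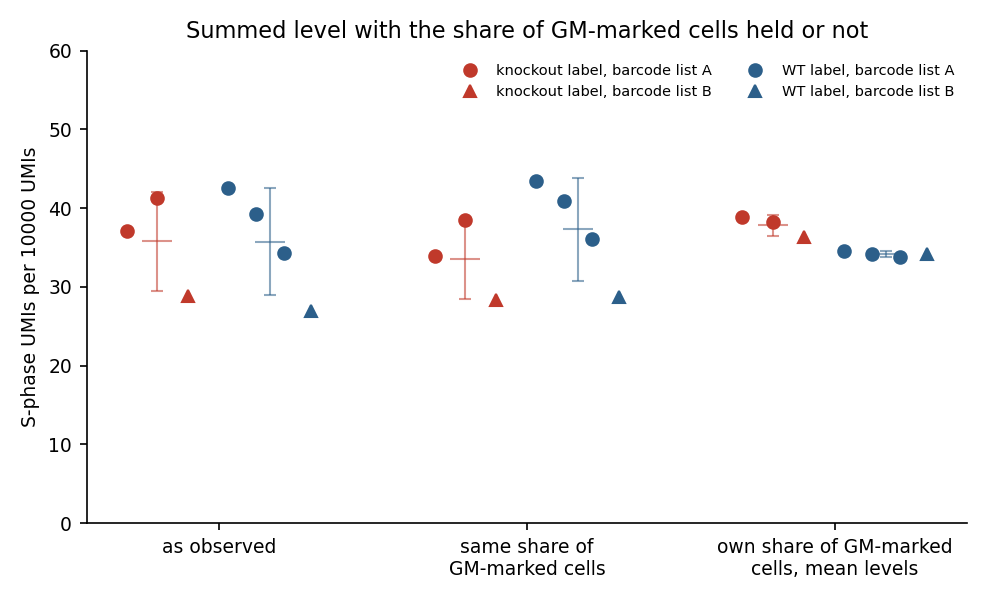
Summed level of the 39 genes (vertical axis, UMIs per 10000) for each library as observed, with the same share of GM-marked cells in every library, and with each library's own share but the average level of each state. Points are libraries (red knockout label, blue WT, triangles the second barcode list), and bars give the mean and 1 SD. The means of the labels are 35.8 and 35.8, then 33.6 and 37.3, then 37.8 and 34.2.

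No member passed the test between labels in any of the 6 populations tested, with barcode list as a covariate. Over all kept cells 0 of 39 were called (edgeR quasi-likelihood test), where 1.07% of 15149 genes were. In GM-marked cells 0 were called, where 0.0572% of 13984 genes were. Outside the GM gate 0 were called, where 0.305% of 14411 genes were. In stem-marked, lymphoid-marked and unmarked cells 0 were called in each, where 0.119%, 0.159% and 0.297% of all genes were. DESeq2 also called 0 of the 39 in each of the 6, where it called 5.7%, 0.479%, 1.14%, 0.55%, 0.243% and 0.536% of all genes in the same order. The gene fits leave wide intervals, with an SE of 0.12 to 0.21 on the log2 scale in GM-marked cells.

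The median difference, knockout minus WT, was 0.10 over all kept cells, with 30 of 39 genes positive, and all genes had a median of 0.01. It was -0.03 in GM-marked cells (16 of 39 positive), -0.18 outside them (2 of 39), -0.22 in stem-marked cells (1 of 39), -0.18 in lymphoid-marked cells (9 of 39) and -0.07 in unmarked cells (9 of 39), where the medians of all genes lay between -0.01 and 0.01. The 39 genes were measured in the same cells and libraries, so the number of positive genes is not a count of independent results. These populations share cells: stem-marked, lymphoid-marked and unmarked cells are all outside the GM gate.

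Over all kept cells Rrm2 had the largest difference. It was at 95.2, 53.3 and 68.6 CPM in the knockout libraries and at 49.98, 39.5, 39.6 and 66.0 in the WT libraries. Knockout library 1 is above all others and the remaining values overlap, and the log2 difference was 0.59 (SE 0.22, edgeR adjusted p 0.19), or 0.21 without that library. E2f8 (0.28), Mcm5 (0.27) and Cdc45 (0.25) had edgeR adjusted p-values of 0.27, 0.29 and 0.30. In GM-marked cells the members ranged from -0.25 for Dscc1 to 0.18 for Rrm2, with Mcm2 to Mcm7 between -0.07 and 0.08, Pcna at -0.09, Tyms at -0.12 and Ccne2 at 0.02. Dscc1 was at 18.9, 15.7 and 26.2 CPM there in the knockout libraries and at 25.4, 13.2, 27.3 and 28.5 in the WT libraries, which overlap. Next to it were Pola1 (-0.18), Prim1 (-0.16) and Clspn (-0.15), and the sign of Pola1 and Prim1 was not kept under every alternative. The edgeR adjusted p-values of all 39 there were 0.82 or higher.

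Outside the GM gate the lowest values were those of Gins2 and Cdc45 (-0.31 each), Rrm1 (-0.29) and Dscc1 (-0.29). Cdc45 was at 19.1, 22.6 and 28.1 CPM in the knockout libraries and at 29.3, 28.7, 25.9 and 30.1 in the WT libraries. Only the knockout library of the second list reaches the WT range, and the edgeR adjusted p was 0.69. Nasp (0.06) and Wdr76 (0.02) were the 2 positive genes. Mcm2 to Mcm7, Pcna, Tyms, Rrm2 and Ccne2 lay between -0.27 (Mcm5) and -0.05 (Ccne2). In stem-marked cells the lowest were Cdc45 (-0.35), Clspn (-0.33) and Uhrf1 (-0.32), with an edgeR adjusted p of 0.97 each, and those 10 genes lay between -0.28 (Mcm3) and -0.16 (Mcm6). Nasp, at 0.15, was the 1 positive gene. In lymphoid-marked cells Rrm2 had -0.68 (SE 0.20, edgeR adjusted p 0.44) and Uhrf1 -0.59 (SE 0.19, edgeR adjusted p 0.66), with Pcna and Usp1 at -0.41 each. Rrm2 there was at 20.2, 32.2 and 69.9 CPM in the knockout libraries and at 50.7, 42.3, 48.2 and 99.9 in the WT libraries, from as few as 11 UMIs in 1 library. In unmarked cells Dscc1 (-0.34), Rrm1 (-0.32) and Gins2 (-0.28) were lowest, Wdr76 and Ccne2 (0.15 each) were highest, and the smallest edgeR adjusted p was 0.99.

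**Figure D5:**
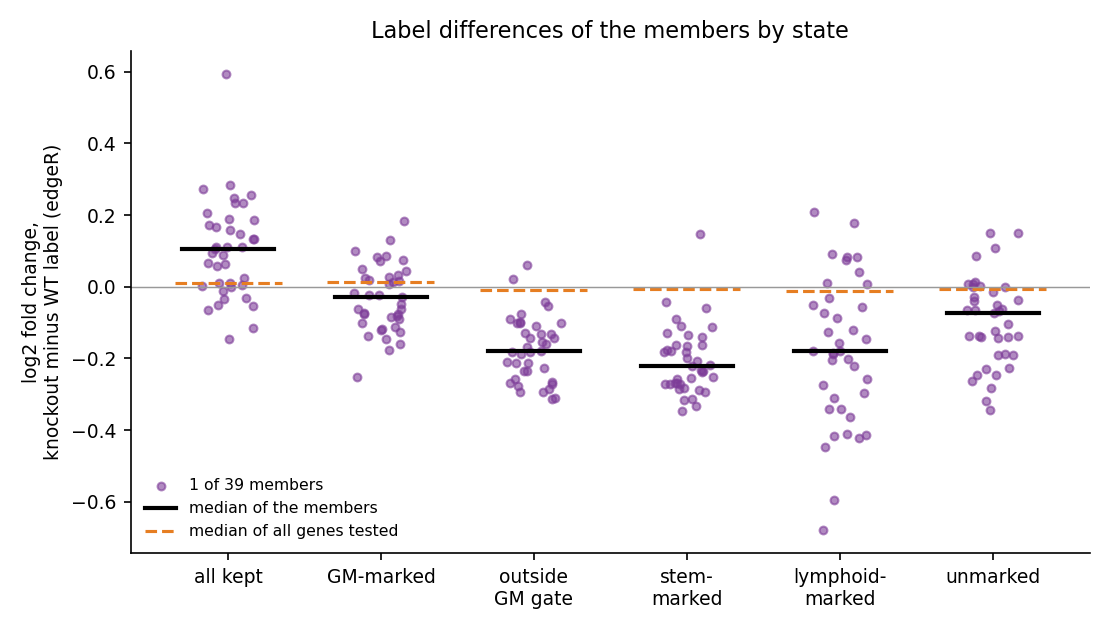
Log2 difference between the labels (vertical axis, knockout minus WT, edgeR with barcode list as covariate) for each of the 39 genes in 6 populations of cells. Points are genes, the black line is their median and the dashed line the median of all genes tested. The members' median is above that of all genes over all kept cells (0.10) and lowest in stem-marked cells (-0.22), and no point passed an adjusted p of 0.05.

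Whether the label difference itself differed between GM-marked and other cells was tested as an interaction with the library as a block. None of the 39 passed (edgeR quasi-likelihood test, 0 called), where 0.342% of 14925 genes were called, and DESeq2 called 0 of the 39 and 0.824% of all genes. The median interaction was 0.14, with 35 of 39 positive, and that of all genes was 0.02. The smallest adjusted p-values were those of Rrm1 (0.38, SE 0.10, edgeR adjusted p 0.10), Fen1 (0.40, SE 0.12, edgeR adjusted p 0.13) and Mcm5 (0.35, SE 0.11, edgeR adjusted p 0.15). The call depends on the libraries. In the 5 libraries of the first barcode list 6 members passed, Fen1 (0.59), Cdc45 (0.58), Rad51ap1 (0.56), Mcm5 (0.56), Rrm1 (0.54) and Mcm7 (0.32), with 8.16% of all genes called. Without knockout library 3, and likewise without WT library 4, 5 passed, which are these genes without Mcm7, with 7.62% and 7.73% of all genes called. These 2 fits are not separate from that of the first list. With 1 library of the second list left, the barcode-list covariate takes up all of its difference between states. With no gene filter 4 passed (Mcm5, Rrm1, Rrm2 and Fen1, 2.87% of all genes called), and with looser gates 1 did (Rrm2, 2.8%).

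Marker levels within the GM gate overlapped between the labels over all 7 libraries, but not within the first barcode list. The 10 GM markers, all detected, summed to 52.0 to 147 UMIs per 10000 in GM-marked cells of the knockout libraries and 33.7 to 66.2 in those of the WT libraries. Of 16 markers of mature cells, 15 had a UMI there and Cd3e was at 0. Their sum was 2.14 to 9.28 in the knockout libraries and 4.96 to 49.3 in the WT libraries. In the first barcode list the GM markers were at 79.2 and 147 in the knockout libraries and 33.7 to 66.2 in the WT libraries. The mature markers were there at 2.14 and 9.28 against 13.8 to 49.3. Outside the GM gate, GM markers were at 5.23 to 5.87 in the knockout libraries and 3.55 to 4.655 in the WT libraries, without overlap. They were also apart in stem-marked (4.76 to 5.42 against 2.74 to 4.06) and lymphoid-marked cells (5.66 to 6.19 against 3.69 to 4.59). In unmarked cells they overlapped. The part of these marker levels in the label differences of the 39 was not tested.

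Single members also differed between the 2 barcode lists. Over all kept cells 15 of the 39 were lower and 11 higher in both libraries of the second list than in any of the first, where 32.7% and 31.5% of all 15149 genes were, so the members' shares are near the background. Pola1 was at 103 and 108 CPM in the second list and at 244 to 403 in the first, and Rfc2 was at 283 and 300 CPM in the second and at 113 to 144 in the first. Pola1 is the longest of these genes (chrX:93304767-93632155, minus strand, mm10), with a span of 327 kb. The median gene span was 37.0 kb for the 15 lower genes and 17.6 kb for the 11 higher ones, although Pcna, at 4.15 kb, is among the 15. The lists differ in more than 1 way, so the source of these differences cannot be told apart.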

How the data were processed

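UMI count matrices were made by the authors with Cell Ranger 7.0.0, per the file headers and the submitters' processing notes, which also name Seurat 4.4.0 and build mm10; the deposited counts are whole UMIs per gene and barcode. Libraries held 14970791 to 89747946 UMIs. Barcodes with at least 1000 UMIs, 500 genes and at most 10% mitochondrial UMIs were kept. Scrublet (scanpy 1.11.5) marked 0 to 3 doublets per library, so it cannot be said to have worked, and no cell was removed by it. Counts were summed per library and state (at least 20 cells) and tested with edgeR 4.0.16 (R 4.3.3, TMM, filterByExpr, robust quasi-likelihood test, two-sided), after the same steps were tested on simulated data. The barcode list was found from the barcodes, since libraries split by it. Summed levels of the 39 genes have no test. The members, lists, gates and tests were chosen with earlier results of these data known.

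Genes named in every comparison are Mcm2 to Mcm7, Pcna, Tyms, Rrm2 and Ccne2, with the 8 members of largest difference among those called, the 4 of smallest p where fewer than 4 were called, any called against the median, and the 4 other replication factors with the largest called difference; members not called, further examples and Tk1, Cdt1, Lig1, E2f2, Dck, Dbf4 and Ticrr were named after their values were seen. Alternatives were DESeq2 1.42.0 in place of edgeR, no gene filter, no TMM with 83 ribosomal protein and 13 mitochondrial genes left out, looser and stricter gates, a stricter cell filter, removal of the highest doublet scores, the first barcode list alone, no covariate, a replicate block, and each library left out in turn. Gates drawn on thinned cells, and the stricter cell filter on counts of genes, were added after the data were seen. Promoters are from RefSeq.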

Additional observations from a re-analysis of the deposited data

Results flagged for a closer look

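In 60 groups of 4 or more libraries, 1 value for each named gene, state and label, 2 held a library far from the rest, and chance gives about 1 in 20. Tyms in unmarked cells was at 87.0 CPM in WT library 2, while the other WT libraries were at 136 to 142. Rrm2 outside the GM gate was at 58.7 CPM in WT library 4, while the other WT libraries were at 33.3 to 37.1, and that library is the one of the second barcode list.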

How the results depend on the processing

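Over the comparisons, 266 values under alternatives stayed near the main value. For counts this means a like number of members called, and for summed levels a difference within the SD of the libraries. The rule did not ask for the same sign, and label differences in the sum changed sign in all kept and in unmarked cells. Over single named genes 1034 values kept their direction and their side of the threshold, with 15 passing and 23 missing the threshold anew. For stem-marked against unmarked cells 21 of 39 members passed with looser gates, in place of 37. For lymphoid-marked cells, in place of 5, 0 passed with looser gates and 3 in the first barcode list. For the interaction, 4 passed with no gene filter, 1 with looser gates and 6 in the first barcode list, in place of 0. Leaving out 1 library at a time gave 0 to 5. The 5 came without knockout library 3 or WT library 4, which in effect repeats the fit of the first barcode list. The GM-marked minus other difference in the summed level, 10.8, was 15.8 over UMIs outside ribosomal protein and mitochondrial genes, 9.52 with looser gates, 9.57 with stricter gates and 7.42 with gates drawn on thinned cells. Leaving out 1 library gave 33 to 36 members for GM-marked cells, 36 to 38 for stem-marked, 4 to 6 for lymphoid-marked and 0 in all 6 label comparisons. Over all kept cells the label difference in the summed level then ran from -2.94 to 3.46, and in unmarked cells from -5.55 to 0.095. The cause was not tested. In GM-marked cells Prim1 was at 0.00986 with gates on thinned cells and at 0.011 with the replicate block, and Pola1 at 0.021 with stricter gates, in place of -0.16 and -0.18. The replicate block changed no call: 0 members passed in all 6 label comparisons. Same-numbered libraries correlated at 0.664, 0.859 and -0.487 in their deviations. For knockout libraries 1 and 2 the same-numbered WT library gave the highest value. Knockout library 3 correlated most with WT library 4 (0.915), which is of the same barcode list. Whether equal numbers mark pairs cannot be told from these values. All-gene splits that moved by over 10 points were, for the interaction, 15 higher and 36 lower against 17 and 94 without TMM and 53 and 70 with DESeq2, and for the label in GM-marked cells 4 and 4 against 19 and 48 with DESeq2. Lymphoid-marked cells of 2 knockout libraries number 52 and 31, which limits those sums.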
